A study of Mus musculus with 21 samples.

Results

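The 6 libraries described here come from C57Bl6/J mice whose marrow was taken after 24 weeks of Western diet and grown into macrophages, out of 21 libraries of macrophage RNA in the whole study. They were chosen by their labels alone, 3 as "WD + LPS" and 3 as "WD control". Marrow cells were grown for 7 days in RPMI-1640 with medium conditioned by L929 cells. The WD + LPS cultures were labelled as given 100 ng/ml E. coli lipopolysaccharide (LPS) for 24 h, and the WD control cultures as given none. The diet was high in fat, sugar and cholesterol. The age of donors is labelled 24 weeks, as long as the feeding itself, and the sex of the donors is not labelled. The same deposited table holds 3 further libraries, "ND control" replicates 4 to 6, from unstimulated macrophages of mice on standard chow. A second table holds the chow macrophages used for reference, ND + LPS replicates 1 to 3 (the same dose and time) and ND control replicates 1 to 3. Its other libraries are chow macrophages given the same LPS after 10 mM fatty acid, 3 without and 3 with 200 nM TAK242. These enter the filter and the spread of the chow LPS fit. The chow libraries are labelled with 24 weeks of diet as well. No label says whether a replicate number is an animal or a culture, so the spread between libraries may be technical.

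Macrophages sense LPS, a lipid of the outer membrane of Gram-negative bacteria, through the receptor TLR4 with its partners CD14 and MD-2. The signal runs through adaptor proteins to NF-kB, which switches on cytokine and chemokine genes, and to interferon regulatory factors, whose product interferon-beta acts back on the cell to raise the interferon-stimulated genes. Stimulated macrophages also turn to glycolysis, divide less and lower mannose receptor and several lipid-handling genes. Western diet feeding in mice is a model of obesity with fatty liver, in which marrow-derived macrophages enter the liver.

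Values are the deposited ones, in a unit that no source used here names. They were taken to scale with gene length like FPKM, which was not established, so levels of different genes compare only on that assumption. Each library summed to between 327210 and 385061 of these units over the 9 libraries of the table, and between 8803 and 9928 genes reached a value of 1. The top gene of a library held between 2.51% and 8.81% of its sum. Of the 12 macrophage markers examined, 10 passed the filter of a value of at least 1 in at least 3 of the 9 libraries, and Lyz2, the macrophage lysozyme gene, stood at 8441, 9617 and 6422 in the libraries labelled WD + LPS, against 4653, 13328 and 3335 in those labelled WD control. Wherever 3 values are given for a label, they are replicates 1, 2 and 3 (4, 5 and 6 for the chow controls of the table), and coordinates are those of the deposited table, on GRCm38.

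Several genes that LPS is known to raise did not follow the labels. Ccl5, a chemokine gene that attracts T cells, stood at 0.463, 10.5 and 6905 in the libraries labelled WD + LPS, against 7846, 13.7 and 10973 in those labelled WD control. Saa3, which encodes an acute phase serum amyloid, had 14.5, 138 and 13051 under the WD + LPS label, against 12981, 88.4 and 11192 under the WD control label. In both genes WD + LPS replicate 3 and WD control replicates 1 and 3 were high, and the other 3 libraries were low. The inducible nitric oxide synthase gene Nos2 ran the same way, at 0, 0.00528 and 11.6 in WD + LPS and 192, 0.173 and 229 in WD control.

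Other genes picked to check the label, though not all, were high in the same libraries or, where LPS lowers them, low there. Il1b, which encodes the cytokine interleukin-1 beta, had 0.0651, 0.596 and 66.6 in WD + LPS, against 717, 2.42 and 598 in WD control. Acod1, whose enzyme makes itaconate, had 0.490, 0.766 and 198 in WD + LPS, against 382, 2.54 and 331 in WD control. The interferon-induced chemokine gene Cxcl10 had 0.608, 0.277 and 205 in WD + LPS, against 1221, 4.78 and 1252 in WD control. The groups overlapped in all of these genes, and limma's adjusted p was 0.477 for Ccl5, 0.535 for Saa3 and 0.353 for Cxcl10. Mrc1, the mannose receptor gene that LPS lowers, had 103, 115 and 24.8 in WD + LPS, against 4.02, 303 and 4.34 in WD control, low in the libraries where Ccl5 was high. Mki67, a marker of dividing cells, had 13.5, 15.0 and 1.11 in WD + LPS, against 0.0447, 9.79 and 0.119 in WD control. Arg1, picked too and raised by LPS in chow macrophages (log2 change 4.89), was an exception. It had 77.6, 74.1 and 391 in WD + LPS, against 49.2, 25.0 and 46.4 in WD control, and so separated higher by label. Tnf and Cd14 of the same set separated lower, as given below.

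**Figure D1:**
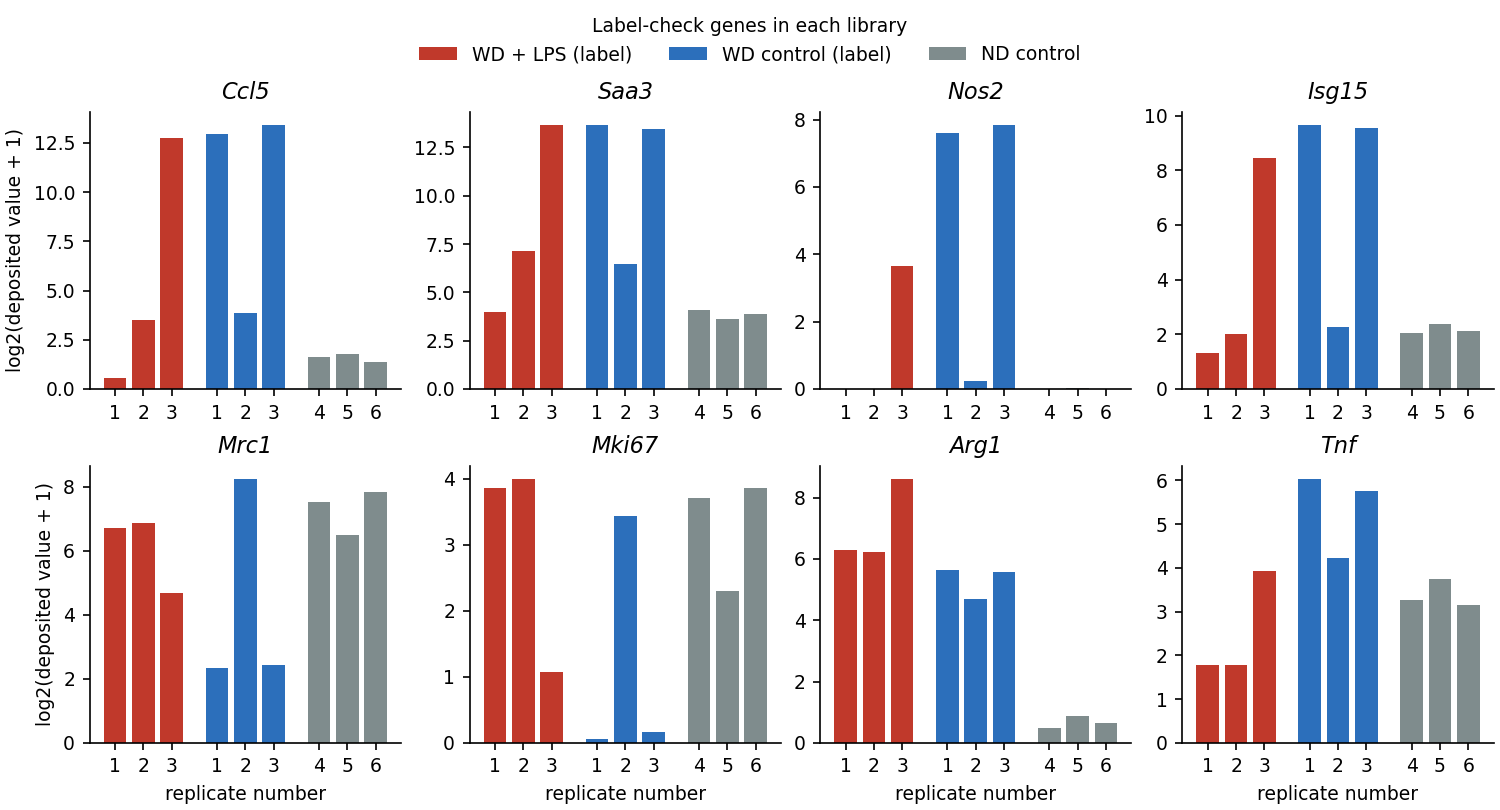
Bars give log2(deposited value + 1) of the label-check genes Ccl5, Saa3, Nos2, Isg15, Mrc1, Mki67, Arg1 and Tnf in every library of the table. The replicate number is on the horizontal axis and the label is given by colour. Other label-check genes are not drawn. For Ccl5 the tall bars are WD + LPS replicate 3 (6905) and WD control replicates 1 and 3 (7846 and 10973), and the short ones include WD + LPS replicates 1 and 2 (0.463 and 10.5).

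The same order held over the 1975 genes that LPS changed at least 2-fold in chow macrophages. The slope of each library on the chow LPS response, measured from the chow controls of its own table, was -0.11, -0.09 and 0.75 in the libraries labelled WD + LPS, against 1.01, 0.06 and 1.03 in those labelled WD control. A slope of 1 means a response as large as in chow macrophages, and 0 means none. WD + LPS replicates 1 and 2 thus lay near the unstimulated chow controls on this measure, and WD control replicates 1 and 3 near LPS-stimulated chow macrophages. These 4 libraries go against their labels, so every direction below is a direction by label only. The reason was not tested.

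Correlations between whole libraries, across 10331 genes that are not independent of each other, grouped them in the same way. WD + LPS replicates 1 and 2 correlated at r = 0.984 with each other and at 0.849 and 0.854 with WD + LPS replicate 3. WD + LPS replicate 3 correlated at 0.946 and 0.937 with WD control replicates 1 and 3. WD control replicate 2 correlated at 0.968 to 0.974 with the chow controls of the table and at 0.779 and 0.755 with WD control replicates 1 and 3. With WD + LPS replicates 1 and 2 it correlated at 0.934 and 0.9255. Against the mean of ND control replicates 1 to 3 of the second table, WD + LPS replicates 1 and 2 reached 0.974 and 0.970. Against the mean of replicates 4 to 6 they reached 0.940 and 0.935. For WD control replicate 2 these were 0.940 and 0.976.

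**Figure D2:**
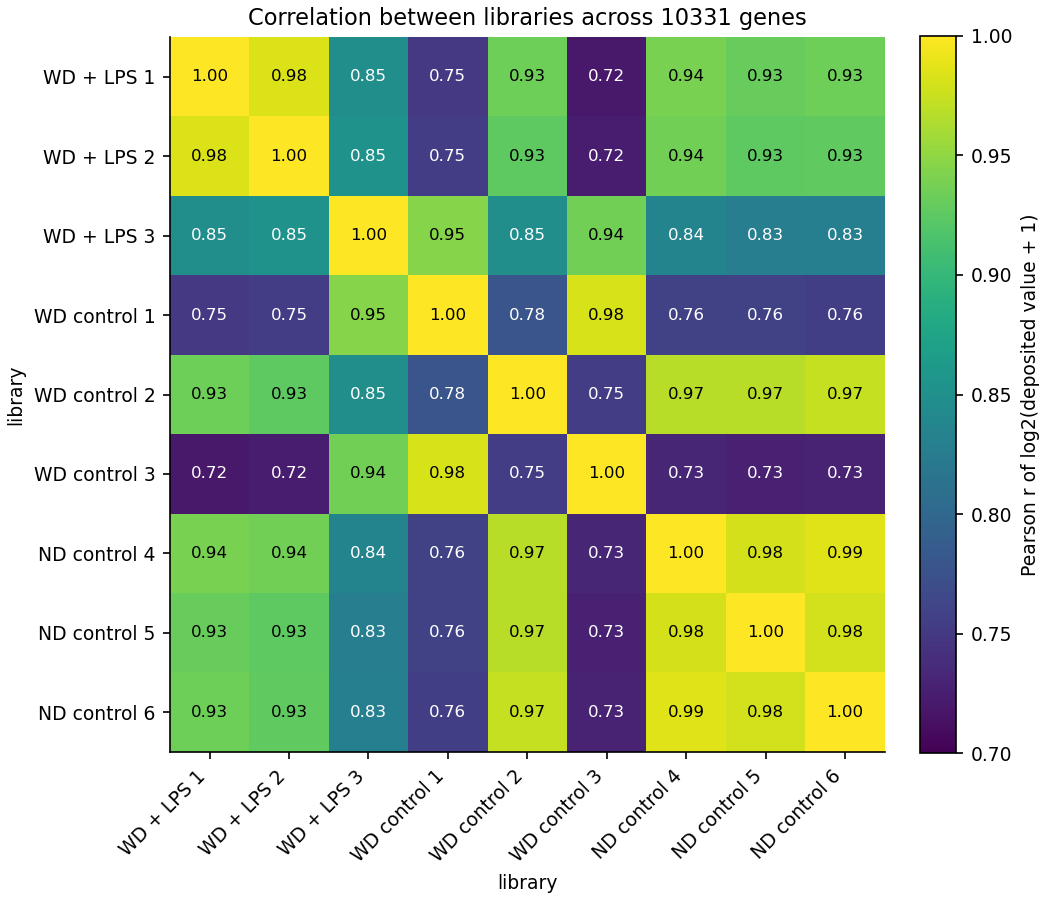
Each cell is the Pearson correlation of log2(deposited value + 1) between a pair of libraries of the table, with the libraries labelled WD + LPS first, then WD control, then ND control. WD + LPS replicate 3 is closer to WD control replicates 1 and 3 (0.946 and 0.937) than to WD + LPS replicates 1 and 2 (0.849 and 0.854).

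Against that split, 1471 of the 10331 genes tested (14.2%) still separated all 6 libraries by label, with every library of one label above every library of the other. Of these, 798 were higher under WD + LPS (7.72%) and 673 were lower (6.51%). A gap of at least 1 on the log2(value + 1) scale between the nearest libraries of the labels was left in 71 genes (0.687%), of which 50 were higher (0.484%) and 21 lower (0.203%). The fit across all 9 libraries called 99 genes at an adjusted p under 0.05 (0.958%), of which 70 rose (0.678%) and 29 fell (0.281%) under the WD + LPS label. All 99 separated the libraries by label. With 3 libraries against 3 no exact permutation test of a single gene can go below 0.10, so separation alone is a description. A gene whose 6 libraries were exchangeable would separate them with a probability of 0.10, beside the 14.2% seen.

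The number of calls rested on which libraries entered. Without WD + LPS replicate 1 or 2 it was 24 or 18, and without WD control replicate 1 or 3 it was 23 or 21. Without WD + LPS replicate 3 it was 747, and without WD control replicate 2 it was 4086. Comparing WD + LPS replicate 3 with WD control replicate 2 alone, the pair whose LPS-responsive genes do not contradict the labels, called 3301 genes, 863 higher and 2438 lower, on the assumption that a lone library varies like the chow controls. Of the 99 genes, 85 were called the same way in that pair and 0 changed sign, a direction that separation by label already fixes. With the 6 Western diet libraries fitted alone 2 of the 99 stayed called, and 0 with the replicate number as a block. In the fit with the chow controls, 17 genes were called whichever single library was left out. They are Camkk1, Cela1, Chil3, Ctse, Epb41l3, F7, Gstm2, Il1rl2, Lbp and Mgst2, which rose, and Ets2, Fgr, Nlrp3, Rapgef5, St3gal5, Trem1 and a gene without a symbol on an unplaced scaffold, which fell. Epb41l3 and the gene without a symbol are the 2 that stayed called with the 6 libraries alone. Every other called gene named below lost its call when at least 1 of WD + LPS replicates 1 and 2 and WD control replicates 1 and 3 was left out, and all 99 stayed called without WD + LPS replicate 3 or without WD control replicate 2.

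Genes of fatty acid transport and the lysosome were among those with the widest separation upward. Fabp5 (chromosome 3, 10012548 to 10016607, plus strand), a cytoplasmic carrier of fatty acids, stood at 1507, 1819 and 434 in the libraries labelled WD + LPS, against 69.9, 43.8 and 66.2 in those labelled WD control. Its log2 difference was 4.15 (SE 0.50, adjusted p = 0.011), a mean 20.9 times as high. WD + LPS replicates 1 and 2 were highest, replicate 3 was well below them, and all 3 cleared every WD control library. Gpnmb (chromosome 6, 49036546 to 49070929, plus strand), a membrane glycoprotein of lysosome-rich macrophages, stood at 1784, 2343 and 718 in WD + LPS, against 182, 101 and 226 in WD control (log2 difference 3.15, SE 0.46, adjusted p = 0.0253). Ctse (chromosome 1, 131638306 to 131675505, plus strand), which encodes the aspartic protease cathepsin E, had 23.4, 39.4 and 8.87 in WD + LPS, against 0, 0.0301 and 0.0370 in WD control (log2 difference 4.38, SE 0.44, adjusted p = 0.00485). Cathepsin E transcripts were thus nearly undetected under the WD control label, although the chow controls held 10.0, 8.59 and 8.62.

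The promoters of Gpnmb and of Nlrp3, the inflammasome sensor that separated the libraries downward, are shown because these genes stand for the opposite directions by label. The sequences are RefSeq's on GRCm38.p6, from 250 bases before to 50 after the start site, 5′ to 3′ on the gene's strand, at chr6:49036268-49036567 and chr11:59541319-59541618, both on the plus strand.
Gpnmb: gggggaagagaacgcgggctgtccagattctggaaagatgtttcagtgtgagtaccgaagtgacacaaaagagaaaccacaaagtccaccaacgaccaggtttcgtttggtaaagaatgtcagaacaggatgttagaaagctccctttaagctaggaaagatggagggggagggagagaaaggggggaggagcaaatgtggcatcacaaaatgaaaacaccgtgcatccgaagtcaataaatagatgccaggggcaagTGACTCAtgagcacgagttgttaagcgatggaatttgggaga
Nlrp3: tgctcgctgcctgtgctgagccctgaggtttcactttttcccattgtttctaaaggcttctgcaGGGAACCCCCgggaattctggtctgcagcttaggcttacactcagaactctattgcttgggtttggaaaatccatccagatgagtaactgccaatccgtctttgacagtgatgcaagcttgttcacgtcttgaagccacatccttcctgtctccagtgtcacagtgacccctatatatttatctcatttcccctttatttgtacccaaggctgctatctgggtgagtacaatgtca
Capitals mark matches, on either strand, to an AP-1 motif (TGANTCA) or an NF-kB motif (GGGNNNNNCC), which were searched separately. Gpnmb held 1 match to the AP-1 letters and Nlrp3 1 match to the NF-kB letters. Of 32851 promoters of that length, 7.81% held the AP-1 letters and 50.8% the looser NF-kB letters, so the match is a description of these sequences.

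Further genes of lipid and debris handling lay on the same side. Mfge8 (chromosome 7, 79133768 to 79149060, minus strand), whose product bridges macrophages to dying cells, had 83.5, 60.7 and 22.7 in WD + LPS, against 3.64, 5.89 and 3.47 in WD control (log2 difference 3.25, SE 0.44, adjusted p = 0.0179). Cd5l, a secreted scavenger receptor protein of macrophages, had 18.9, 35.3 and 5.72 in WD + LPS, against 0.703, 0.799 and 0.661 in WD control (log2 difference 3.30, adjusted p = 0.0319). In both genes WD + LPS replicate 3 was the lowest of its label and still above all 3 WD control libraries. Apoc2, an apolipoprotein that activates lipoprotein lipase, had 65.2, 45.2 and 37.9 in WD + LPS, against 11.7, 7.86 and 10.4 in WD control (log2 difference 2.18, adjusted p = 0.00978), and its exons overlap those of the gene model Gm44805. Fabp4, the adipocyte and macrophage fatty acid carrier, had 86.8, 97.8 and 11.5 in WD + LPS, against 2.53, 1.53 and 3.25 in WD control, and missed the threshold (adjusted p = 0.0554).

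Other called genes of small p or wide gap encode enzymes that use glutathione, Mgst2, Gstm2 and Gpx3, chosen by that rule and not as a list of such enzymes. Mgst2, a microsomal glutathione transferase, had 23.3, 20.4 and 10.1 in WD + LPS, against 0.548, 0.941 and 0.384 in WD control (log2 difference 3.48, SE 0.31, adjusted p = 0.00376). Gstm2, a cytosolic glutathione transferase, had 25.7, 29.3 and 15.7 in WD + LPS, against 2.59, 2.47 and 2.30 in WD control (log2 difference 2.79, SE 0.23, adjusted p = 0.00289). Gpx3, the secreted glutathione peroxidase, had 37.3, 34.8 and 7.76 in WD + LPS, against 0.698, 1.00 and 0.700 in WD control (log2 difference 3.67, adjusted p = 0.0206). None of these groups overlapped, and WD + LPS replicate 3 had the lowest value of its label in all 3 genes.

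The next 4 genes were named for their small p or wide gap and form no list. Chil3 (chromosome 3, 106147554 to 106167564, minus strand), the chitinase-like protein Ym1 that is a mouse marker of alternative activation, had 14.6, 21.5 and 18.6 in WD + LPS, against 0.588, 1.69 and 0.789 in WD control (log2 difference 3.27, SE 0.25, adjusted p = 0.00223). Here the 3 WD + LPS libraries lay close together, including replicate 3. The chemokine gene Ccl6 had 200.5, 314 and 82.4 in WD + LPS, against 6.31, 24.9 and 6.28 in WD control (log2 difference 3.97, adjusted p = 0.0275). Anpep, the aminopeptidase CD13, had 134, 155 and 98.8 in WD + LPS, against 26.5, 14.2 and 30.8 in WD control (log2 difference 2.44, adjusted p = 0.011). The WD + LPS libraries were above every WD control library for both. For Anpep, ND control replicates 4 to 6 had 5.20, 4.86 and 5.11, and ND control replicates 1 to 3 of the other table had 99.2, 132 and 117. Fcna, the lectin ficolin A of the complement system, had 21.0, 43.7 and 20.1 in WD + LPS, against 2.69, 5.42 and 1.76 in WD control (log2 difference 2.77, adjusted p = 0.0253), with the antisense gene Fcnaos on the same exons and no statement on strand.

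Other genes of small p were expressed at low levels. F7, coagulation factor VII, had 4.61, 3.97 and 3.31 in WD + LPS, against 0.168, 0.0153 and 0.152 in WD control and 0 in all 3 chow controls of the table (log2 difference 2.15, SE 0.14, adjusted p = 0.00105). Epb41l3, a linker of membrane and cytoskeleton, had 9.11, 9.38 and 8.11 in WD + LPS, against 0.436, 0.749 and 0.533 in WD control (log2 difference 2.65, SE 0.18, adjusted p = 0.00105). Il1rl2, the receptor of interleukin-36, had 3.23, 3.02 and 3.06 in WD + LPS, against 0.324, 0.0928 and 0.443 in WD control (log2 difference 1.68, adjusted p = 0.00289). In these 3 genes the spread within a label was small beside the gap between labels. Lbp, which encodes the serum protein that hands LPS to CD14, had 2.83, 2.38 and 2.16 in WD + LPS, against 0.304, 0.00719 and 0.167 in WD control (log2 difference 1.58, adjusted p = 0.00404). Camkk1, a kinase of the calcium and calmodulin pathway, had 2.13, 1.99 and 3.31 in WD + LPS, against 0.148, 0 and 0.134 in WD control (log2 difference 1.65, adjusted p = 0.00485). The pancreatic-type elastase gene Cela1 had 13.7, 19.0 and 13.4 in WD + LPS, against 2.56, 4.02 and 2.48 in WD control (log2 difference 2.03, adjusted p = 0.00687).

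Regulatory and signalling genes were among those lower under the WD + LPS label. Id3 (chromosome 4, 136143497 to 136145755, plus strand), an inhibitor of helix-loop-helix transcription factors, had 0.394, 0.285 and 0.192 in the libraries labelled WD + LPS, against 6.91, 20.7 and 8.09 in those labelled WD control (log2 difference -3.17, SE 0.35, adjusted p = 0.00844). Nlrp3 (chromosome 11, 59541568 to 59566956, plus strand), the sensor of the inflammasome that releases interleukin-1 beta, had 4.43, 4.61 and 6.89 in WD + LPS, against 27.0, 21.9 and 26.0 in WD control (log2 difference -2.06, SE 0.20, adjusted p = 0.00479). All 3 WD control libraries stood well above all 3 WD + LPS libraries, WD control replicate 2 included, although Ccl5, Saa3 and Nos2 were low in that library. The unstimulated chow controls also held Nlrp3, at 18.1, 18.9 and 15.7 in the same table and 3.68, 4.31 and 3.58 in the second table. St3gal5 (chromosome 6, 72097592 to 72154571, plus strand), the sialyltransferase that makes ganglioside GM3, had 20.0, 19.9 and 20.6 in WD + LPS, against 81.4, 70.2 and 68.0 in WD control (log2 difference -1.81, SE 0.16, adjusted p = 0.00338). The WD + LPS libraries were within 1 unit of each other, and the chow controls, at 54.3, 65.3 and 56.2, lay between the labels.

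Ets2, a transcription factor downstream of growth factor signalling, had 7.08, 6.95 and 6.72 in WD + LPS, against 18.2, 20.7 and 20.6 in WD control (log2 difference -1.39, SE 0.14, adjusted p = 0.00513). Rapgef5, an activator of Rap GTPases, had 2.87, 3.22 and 5.41 in WD + LPS, against 24.2, 18.4 and 23.3 in WD control (log2 difference -2.28, adjusted p = 0.00485). Ets2 was even within each label, and for Rapgef5 WD + LPS replicate 3 was the highest of its label. The Src family kinase gene Fgr had 0.0326, 0.216 and 0.170 in WD + LPS, against 2.99, 3.53 and 3.71 in WD control (log2 difference -1.95, adjusted p = 0.00396). Trem1, a receptor that amplifies inflammatory signals, had 0.433, 0.409 and 0.371 in WD + LPS, against 2.64, 2.26 and 2.48 in WD control (log2 difference -1.30, adjusted p = 0.00485). Tnfsf9, the ligand of 4-1BB, had 1.42, 1.13 and 1.35 in WD + LPS, against 4.15, 5.82 and 4.33 in WD control (log2 difference -1.32, adjusted p = 0.0178), and shares exon sequence with the gene model Gm11110. Gmfg, a regulator of actin branching, had 43.6, 48.4 and 35.6 in WD + LPS, against 231, 126 and 110.0 in WD control (adjusted p = 0.0369), and Cdk14, a cyclin-dependent kinase gene, had 3.16, 3.37 and 4.47 in WD + LPS, against 11.3, 16.2 and 10.2 in WD control (adjusted p = 0.032).

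Neighbouring genes on chromosome 7 separated the labels together. Dmwd (chromosome 7, 19076227 to 19082776, plus strand) had 0.0921, 0.113 and 0.111 in WD + LPS, against 3.18, 7.55 and 3.18 in WD control (log2 difference -2.26, adjusted p = 0.0117). Dmpk (chromosome 7, 19083849 to 19093821, plus strand), the myotonic dystrophy protein kinase gene, had 0.257, 0.144 and 0.0272 in WD + LPS, against 2.57, 86.3 and 3.59 in WD control. Dmpk missed the threshold (adjusted p = 0.179), and among the WD control libraries replicate 2 alone was near the chow controls, which had 51.9, 48.7 and 55.8. The gene ENSMUSG00000095742 on the unplaced scaffold JH584295.1, for which no symbol was matched, was listed at 0 in all 3 WD + LPS libraries, against 18.3, 27.1 and 39.6 in WD control (adjusted p = 0.00105). It held 75.5, 119 and 93.3 in the chow controls, and no fold is given against libraries at 0.

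Other genes with a wide gap missed the threshold, and libraries of a label differed more in them. Itgal, the integrin chain CD11a, had 6.37, 3.57 and 43.0 in WD + LPS, against 288, 98.5 and 229 in WD control (adjusted p = 0.0612). Nfxl1 had 3.50, 3.91 and 16.5 in WD + LPS, against 37.4, 35.3 and 38.2 in WD control (adjusted p = 0.0612). Slc16a3, the lactate exporter MCT4, had 14.0, 17.8 and 15.8 in WD + LPS, against 47.8, 38.8 and 86.8 in WD control (adjusted p = 0.134). For Itgal and Nfxl1 WD + LPS replicate 3 was the nearest to WD control. Fyttd1, an mRNA export adaptor gene that shares exons with Rubcn, had 3.73, 2.91 and 3.16 in WD + LPS, against 8.85, 17.1 and 10.2 in WD control (adjusted p = 0.113).

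**Figure D3:**
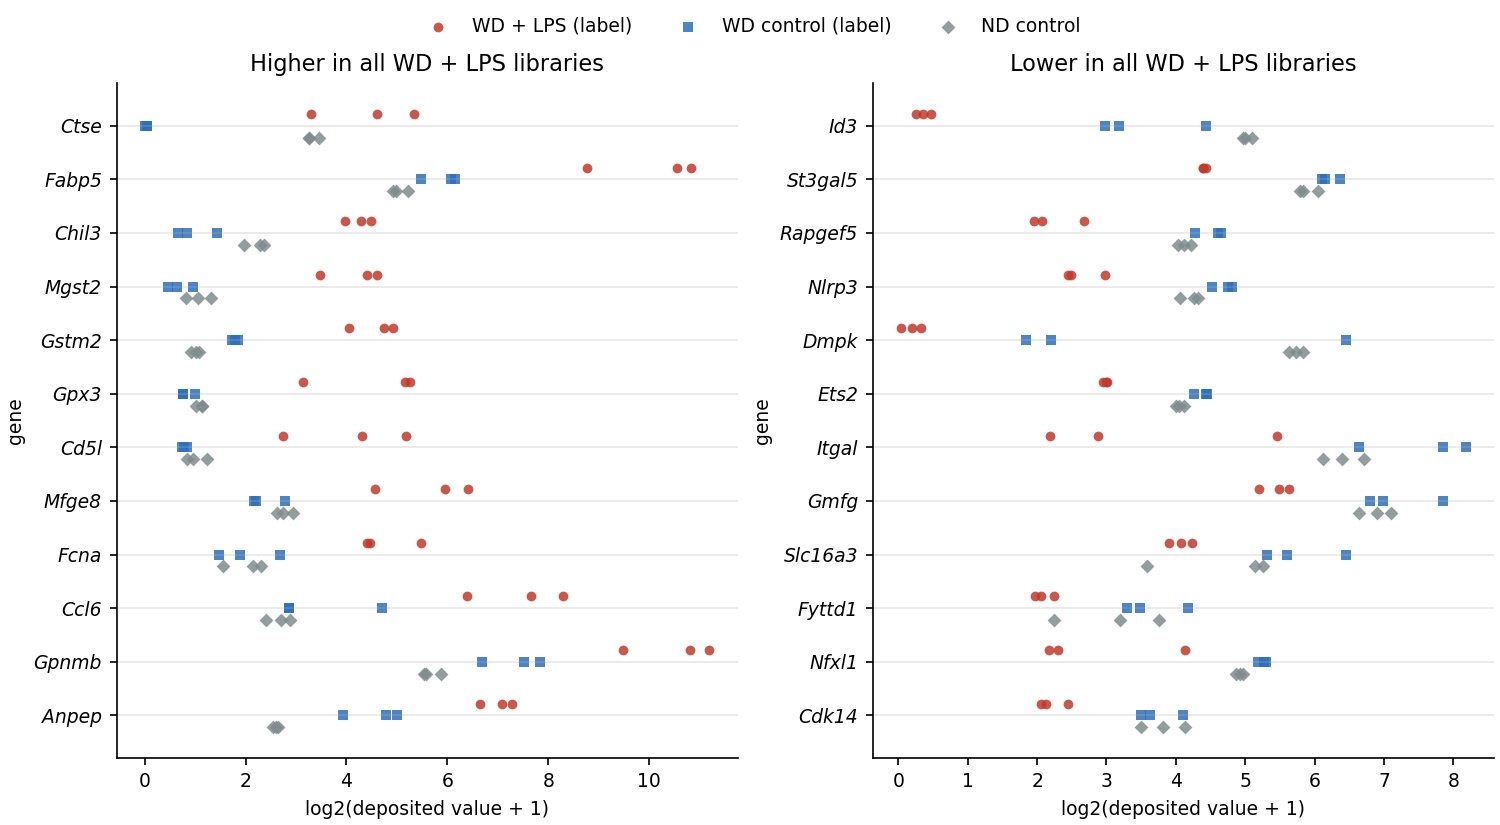
Points give log2(deposited value + 1) of the 12 genes with the widest gap in each direction, left for genes higher and right for genes lower under WD + LPS, with a point for each library and ND control shown beside the labels. No point of WD + LPS overlaps a point of WD control, and for Fabp5 the nearest points are WD + LPS replicate 3 (434) and WD control replicate 1 (69.9).

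WD + LPS replicate 3 was usually the library nearest to the other label. It was nearest in 588 of the 798 genes that were higher and in 42 of the 50 with a wide gap. Among the 673 lower genes it was nearest in 340, and among the 21 with a wide gap in 9. On the other side, WD control replicate 2 was nearest to WD + LPS in 495 of the 798 and in 317 of the 673.

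Members of pathway lists show which parts of the macrophage programme followed the label, read against 7.72% and 6.51% over all genes. Of 16 receptor and adaptor genes of LPS sensing, 1 separated higher and 4 lower. Lbp was the higher one, and Cd14, Tab2, Tirap and Traf3 were lower. Cd14, the LPS co-receptor, had 9.43, 10.0 and 33.2 in WD + LPS, against 75.6, 35.5 and 53.5 in WD control (adjusted p = 0.126). The receptor gene Tlr4 itself overlapped, at 2.61, 2.40 and 2.97 in WD + LPS and 1.29, 3.58 and 1.51 in WD control, and so did Ly96, which encodes MD-2, at 15.7, 13.5 and 28.5 in WD + LPS and 35.2, 18.1 and 43.6 in WD control. Of 15 NF-kB genes, Nfkb1, Rel, Rela, Relb and Ikbkb were lower and Ikbkg higher, and 0 passed the test. Nfkb1, the p105 and p50 subunit gene, had 21.2, 20.8 and 23.5 in WD + LPS, against 42.8, 34.0 and 44.2 in WD control (adjusted p = 0.0612). Scaling each library by the median ratio of its genes left 2 of these 15 lower and 0 higher.

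The products of the LPS response did not follow the label. Of 40 interferon-stimulated genes, 17 genes of MHC class I and the immunoproteasome, and 13 acute phase and antimicrobial genes, 0 separated the libraries in either direction. Their median log2 differences were -2.08, -1.41 and -2.34, against 0.16 over all genes tested. Isg15, a ubiquitin-like interferon product, had 1.47, 2.99 and 344 in WD + LPS, against 808, 3.83 and 754 in WD control, and Irf7, an interferon regulatory factor gene whose exons overlap those of Phrf1, had 1.10, 1.38 and 317 in WD + LPS, against 698, 4.45 and 717 in WD control. Both were high in WD + LPS replicate 3 and in WD control replicates 1 and 3. Of 12 inflammatory cytokine genes, Csf1 separated higher and Tnf and Tnfsf9 lower. Tnf, the tumour necrosis factor gene, had 2.41, 2.41 and 14.3 in WD + LPS, against 64.6, 17.8 and 53.1 in WD control (adjusted p = 0.0977). Median-ratio scaling left 0 of these 12 higher and 1 lower. Of 15 chemokine genes, Ccl6 alone separated, and after scaling 2 genes did, both higher. Of 30 cell cycle genes 0 separated, with a median difference of 1.75. Of 9 immediate early genes tested, Fos and Btg2 were lower.

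Of 24 genes of glycolysis and hypoxia, 12 separated lower and 0 higher, and 0 passed the test. The 12 were Aldoa, Bnip3, Ero1l, Gapdh, Hk1, Ldha, Pfkl, Pgk1, Pkm, Slc16a3, Slc2a1 and Tpi1. Bnip3, a mitophagy gene induced in low oxygen, had 14.6, 15.7 and 15.1 in WD + LPS, against 55.5, 25.2 and 41.5 in WD control (adjusted p = 0.0681). Slc2a1, the glucose transporter GLUT1, had 11.6, 10.8 and 15.9 in WD + LPS, against 38.3, 24.4 and 37.2 in WD control (adjusted p = 0.0699). Pgk1, phosphoglycerate kinase, had 287, 348 and 256 in WD + LPS, against 564, 539.7 and 508 in WD control (adjusted p = 0.0962). WD + LPS replicate 3 stood with its label in these genes. The median difference of the 24 was -0.41, and median-ratio scaling left 10 of them lower and 0 higher.

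Of 19 lysosomal and cathepsin genes, 7 separated higher and 0 lower, with a median difference of 0.84. They were Ctsa, Ctsb, Ctsd, Gpnmb, Hexa, Lamp1 and Mcoln1, of which Gpnmb passed the test. Ctsd, the lysosomal protease cathepsin D, had 14917, 13709 and 4677 in WD + LPS, against 2050.4, 2339 and 1612 in WD control (adjusted p = 0.0622), with the overlapping gene model Gm49369 on its exons. Lamp1, a lysosomal membrane protein, had 871, 827 and 579.9 in WD + LPS, against 394, 389 and 369 in WD control (adjusted p = 0.0946). Both genes were highest in WD + LPS replicates 1 and 2. Median-ratio scaling brought the count to 10 higher and 0 lower.

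Of 20 genes of fatty acid oxidation and lipid droplets, Cpt1a, Fabp4, Fabp5 and Plin2 separated higher and 0 lower. Plin2, the lipid droplet coat protein, had 376, 368 and 453 in WD + LPS, against 258, 96.1 and 275 in WD control (adjusted p = 0.22). Cpt1a, which admits fatty acids to mitochondria, had 25.1, 25.0 and 25.0 in WD + LPS, against 17.8, 9.55 and 19.1 in WD control (adjusted p = 0.214), nearly equal within the WD + LPS label. Of 10 targets of the cholesterol sensor LXR, Apoc2, Apoe and Scd2 were higher and 0 lower. Apoe, the apolipoprotein E gene, had 2794, 3362 and 1528 in WD + LPS, against 959, 1027 and 1009.5 in WD control (adjusted p = 0.111). Of 24 cholesterol synthesis genes, Dhcr7 and Fdft1 were higher, a share near the 7.72% over all genes tested. The exons of Fdft1 overlap those of Ctsb, counted above among the lysosomal genes. Median-ratio scaling brought the cholesterol synthesis genes to 10 higher, all others overlapping, where 10.7% of all genes tested were higher.

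Of 12 genes of alternative activation and scavenger receptors, Arg1, Chil3 and Clec7a separated higher, and Chil3 alone passed the test. Arg1, arginase 1, had 77.6, 74.1 and 391 in WD + LPS, against 49.2, 25.0 and 46.4 in WD control (log2 difference 1.74, adjusted p = 0.213). WD + LPS replicate 3 was the highest. Clec7a, the beta-glucan receptor dectin-1, had 49.3, 52.2 and 7.81 in WD + LPS, against 2.84, 7.03 and 3.16 in WD control (adjusted p = 0.124). Among 11 matrix protease and inhibitor genes, Mmp8, Mmp27 and Timp2 were higher and Adam8 lower. Mmp8, a collagenase, had 21.1, 21.8 and 15.0 in WD + LPS, against 4.23, 0.570 and 5.03 in WD control (adjusted p = 0.0594). Lists of 24 ribosomal protein genes, 13 mitochondrially encoded genes, 17 genes of endoplasmic reticulum stress and 16 NRF2 targets held 0 separating genes in either direction, and at most 1 in each direction after median-ratio scaling. Of 8 S100 genes S100a9 separated higher, and of 11 genes of MHC class II and costimulation H2-DMb1 did. Of 19 nuclear genes of the respiratory chain, Ndufb8 and Sdhb were higher and Cycs lower.

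**Figure D4:**
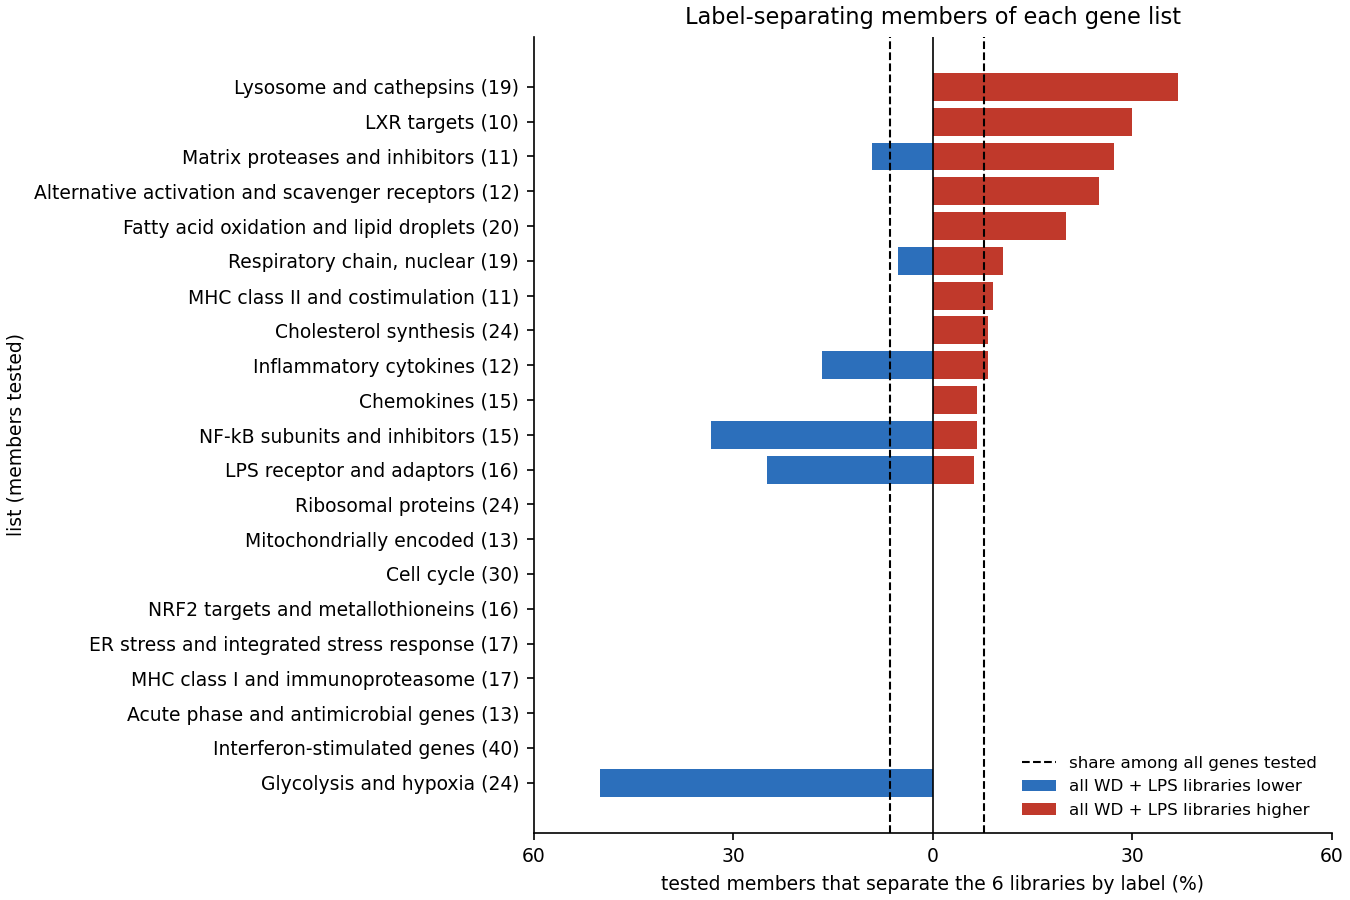
Bars give the percentage of tested members of each list that separated the 6 libraries by label, to the right for members higher and to the left for members lower under WD + LPS, and dashed lines mark 7.72% and 6.51% over all genes tested. Lists with at least 10 members tested are shown. Glycolysis and hypoxia (12 of 24) reaches furthest left among them, and lists of interferon-stimulated and cell cycle genes have no bar.

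Markers of other cell types were examined beside these groups. Of 12 neutrophil markers 6 passed the filter, and Ltf, Mmp8, Ngp and S100a9 separated higher under WD + LPS. The summed level of the 12 ran from 91.5 to 103.4 in WD + LPS and from 26.5 to 75.6 in WD control, with 36.6 to 57.8 in the chow controls. The defining neutrophil genes Ly6g, Mpo, Elane, Prtn3 and Cxcr2 stayed under 1 in all 6 libraries. Ltf, lactoferrin, was the one marker called, at 2.33, 3.38 and 3.00 in WD + LPS and 0.191, 0.609 and 0.0903 in WD control (adjusted p = 0.0222). Mmp8 is also counted above among the matrix proteases. Of 10 stromal markers 3 passed the filter, Col1a2 and Sparc separated lower, and the sums ran from 4.93 to 6.82 in WD + LPS and from 9.97 to 11.4 in WD control. Of 7 monocyte and progenitor markers tested 0 separated, Itgax was the only dendritic cell marker that passed the filter and overlapped, and 11 of 12 erythroid, platelet and mast cell markers stayed under 1 in all 6 libraries. Of 12 lymphocyte markers Cd79b alone passed the filter, at 1.21, 1.98 and 1.60 in WD + LPS and 0.130, 1.11 and 0.182 in WD control. Among macrophage markers Fcgr3 and Mertk separated higher and Cd14 and Spi1 lower. The part of other cells in any of the results was not tested, and in bulk RNA fewer cells of a type and less RNA per cell cannot be told apart.

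The label direction was then set beside the LPS response of chow macrophages, measured in libraries of the second table that the comparison by label does not use. Of 585 genes that LPS raised at least 2-fold there, 7 separated higher under the WD + LPS label (1.20%) and 52 lower (8.89%), while 526 overlapped. Of 1390 genes that LPS lowered, 161 separated higher (11.6%) and 11 lower (0.791%). The other 8044 genes separated in 7.62% higher and 7.36% lower. The median log2 difference by label was -1.22 for the raised genes and 0.87 for the lowered ones. The 7 raised genes made up 0.877% of the 798 that were higher, and the 11 lowered genes 1.63% of the 673 that were lower.

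**Figure D5:**
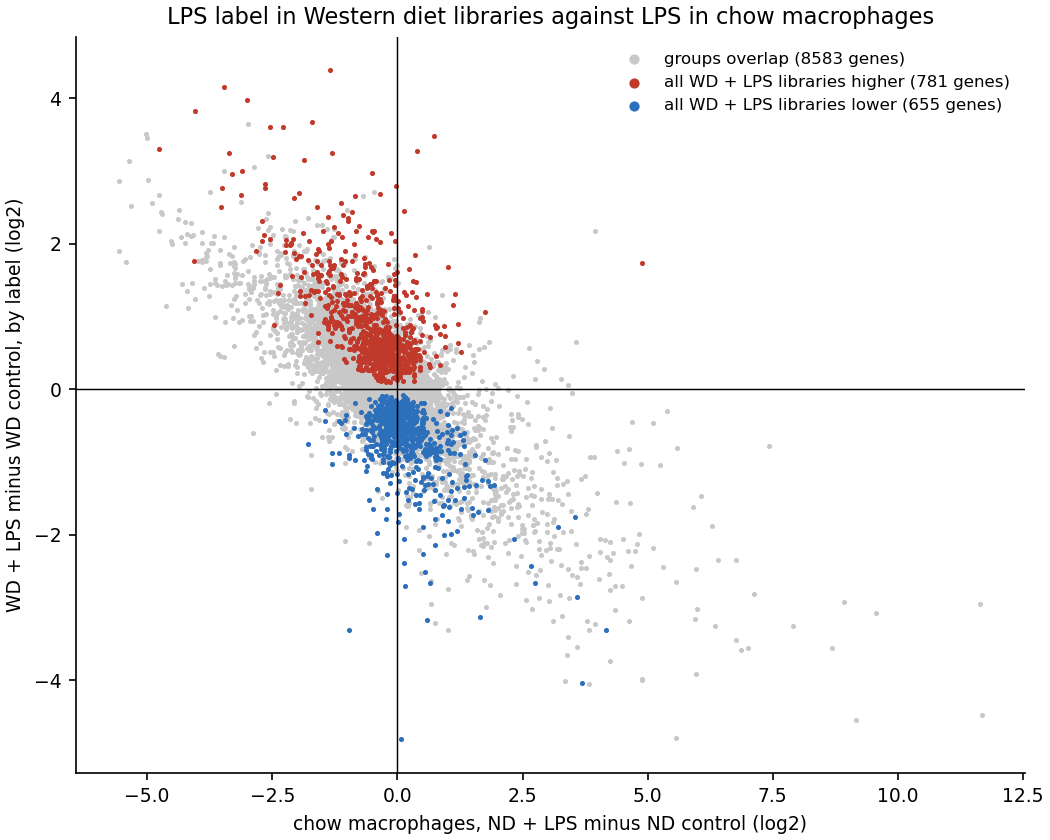
Each point is a gene, with its log2 LPS change in chow macrophages (ND + LPS minus ND control) on the horizontal axis and its log2 difference by label (WD + LPS minus WD control) on the vertical axis, and coloured points separate the 6 libraries. Most genes at the far right lie below 0 and most at the far left above it, with medians of -1.22 for raised and 0.87 for lowered genes.

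Chow controls differed between the tables in many of the genes that follow the label. Libraries were taken to lie on the side of a label when they were all clear of every library of the other label but not of that label. For the 50 genes with a wide gap upward, the chow controls of the same table lay on the WD control side in 36, on the WD + LPS side in 6 and between the labels in 8. The chow controls of the second table lay on the WD + LPS side in 37 of the 50, on the WD control side in 3 and between in 10. Fabp5, for example, had 36.3, 29.2 and 30.6 in ND control replicates 4 to 6 and 1624, 1347 and 1482 in ND control replicates 1 to 3, which carry the same label. For the 21 genes with a wide gap downward, the chow controls of the same table lay on the WD control side in 13 and those of the second table on the WD + LPS side in 11. The tables were normalized separately, so a level set across them is a description.

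The chow controls of the table differed from the other libraries in sex-linked genes. Xist, the RNA of the inactive X chromosome, had 4.56, 3.55 and 7.72 in ND control replicates 4 to 6 and at most 0.00455 in the 6 Western diet libraries, and it had 0, 0.00186 and 0 in ND control replicates 1 to 3 of the other table. The Y-linked genes Ddx3y, Eif2s3y, Kdm5d and Uty were listed at 0 in those 3 chow controls and were present in all 6 Western diet libraries. Ddx3y, an RNA helicase gene of the Y chromosome, had 3.80, 3.01 and 4.99 in WD + LPS, against 5.16, 13.9 and 10.1 in WD control, with no overlap (adjusted p = 0.163). In the fit by label the chow controls of the table serve as a source of spread. They also count in the filter that decides which genes are tested, and they are the baseline of the slopes.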

How the data were processed

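The submitters' processing notes name HISAT2 2.0.5, Trim Galore 0.4.1, FastQC 0.11.5 and CASAVA 1.8.2, and give the builds mm10 and mm9 without roles. The quantification step and the unit are not given in the sources used here. The deposited values are written with decimal commas. Low values of genes with a single exon were taken to move in steps that depend on length, as FPKM would, which was not established. Few values came out as whole reads (10.4% to 19.9% within 0.05 of a whole number), so reads were not recovered and the count test did not apply. Precision rests on the spread between libraries, pooled over all 9 of the table with the 3 chow controls included. Those steps imply very roughly 16.8 to 33.5 fragments in units of 1e6 per library. Coordinates equal those of GENCODE on GRCm38 for 46772 of 50644 genes, and 35 entries of 18 gene IDs with displaced columns were left out.

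Genes at 1 or more in at least 3 of the 9 columns of the Western diet table were kept (10331). Log2(value + 1) was fitted in R 4.3.3 by limma 3.58.1, its prior variance following the mean, with 1 spread for all 9 libraries, and adjusted by Benjamini-Hochberg over the genes tested. Every adjusted p is limma's, called under 0.05. Log2 differences, WD + LPS minus WD control, understate changes of low genes. The chow LPS response was fitted in the same way over the 12 libraries of the second table, those with fatty acid and TAK242 included. A gene counted as raised or lowered at an adjusted p under 0.05 and at least 1 on the log2 scale. Tables were fitted separately. P-values measure only the spread between these libraries, which may be technical.

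Genes named are the 10 of smallest p called in each direction, up to 4 members of each list, and a set of label-check genes. Also named are the 12 with the widest gap in each direction, among genes whose higher mean reaches 10. Unnamed gene models and small RNA genes were left out of those 12. The members, lists and rule were chosen with earlier results of these data known. Other settings tried were no filter, a minimum of 5, a pseudocount of 0.1, median-ratio scaling, only the 6 libraries, the replicate number as a block, no trend, the LPS slope as a covariate, leaving out each library and, added after seeing the data, leaving out 4 libraries. On simulated data with the measured spread the fit called 19% of the changes of 2-fold and 64% of those of 4-fold, and 6 of its 89 calls were false. The simulation drew each gene independently, with the same spread in all 9 libraries. The Western diet libraries differ by a split shared across many genes, which it lacks, so these rates may not hold for them.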

Additional observations from a re-analysis of the deposited data

Results flagged for a closer look

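Among the genes named above for their p or gap, those whose chow response to LPS had an adjusted p under 0.05 and at least 1 on the log2 scale were examined. In 15 of them all libraries labelled WD + LPS moved one way against WD control while all LPS-stimulated chow libraries moved the other way against their controls. Il1rl2, also examined, rose in both, by 1.68 by label and 1.01 with LPS in chow cells. Opposite directions also prevailed among all separating genes that LPS changed. Of the raised genes 52 separated lower and 7 higher, and of the lowered genes 161 separated higher and 11 lower. The 15 are thus not particular in this. Genes were chosen for separating the labels, the libraries do not follow those labels in LPS-responsive genes, and the difference between the responses was not tested.

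Of these, 10 were higher by label and lowered by LPS in chow macrophages. Ctse differed by 4.38 on the log2 scale by label and by -1.34 with LPS in chow cells. Fabp5 differed by 4.15 by label and by -3.46 with LPS in chow cells. Ccl6 differed by 3.97 by label and by -3.0 with LPS in chow cells. Gpx3 differed by 3.67 by label and -1.70 in chow cells, Cd5l by 3.30 and -4.76, Mfge8 by 3.25 and -1.31, and Gpnmb by 3.15 and -1.87. Fcna differed by 2.77 by label and -2.64 in chow cells, Cela1 by 2.03 and -1.34, and Lbp by 1.58 and -1.58.

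The other 5 were lower by label and raised by LPS in chow macrophages. Itgal differed by -4.04 by label and by 3.68 with LPS in chow cells. Nlrp3 differed by -2.06 by label and 2.33 in chow cells, Fgr by -1.95 and 1.20, Slc16a3 by -1.72 and 1.5, and Ets2 by -1.39 and 1.07.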

How the results depend on the processing

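The count of 99 called genes kept its side of 1.5 times only without a filter (111), with a pseudocount of 0.1 (100) and without the mean-variance trend (102). It was 58 with a minimum of 5, 218 with median-ratio scaling, 2 with only the 6 Western diet libraries and 625 with the LPS slope of each library as a covariate. Leaving out single libraries gave 18 to 4086 calls, and leaving out the 4 libraries that go against their labels gave 3301. Genes separating the 6 libraries numbered 2730 without a filter and 962 with a minimum of 5, against 1471. They numbered between 1666 and 6666 when a single library was left out, a count that cannot fall because fewer libraries have to be apart. Median-ratio scaling gave 1107 higher and 793 lower and moved the median difference over all genes to 0.03, against 0.16. Of the 99 genes, 88 were still called under that scaling, 59 without a filter, 94 with a pseudocount of 0.1, 97 without the trend and, with a minimum of 5, 58 of the 62 tested.

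The replicate number as a block, over the 6 libraries, gave 0 calls by limma, with 1564 genes at an unadjusted p under 0.05 and a smallest adjusted p of 0.116. Same-numbered libraries deviated from their label means with correlations of -0.67, 0.68 and 0.76. The sign was positive where both libraries were high or both low in Ccl5. That split covers any effect of a shared animal, so whether the numbers mark a pairing cannot be told from these values. WD + LPS replicate 1 correlated best with WD control replicate 2 (0.74). Some named genes that did not pass the test changed sign. With the LPS slope as a covariate the log2 difference changed sign in 21 of 151 named genes, of which Ly6c2 alone was then called (0.72, adjusted p = 0.0373, against -0.82). The others then positive were Acod1 (0.62), Ccl5 (1.23), Cd74 (0.15), Cd86 (0.22), H2-Q6 (0.013), Irf7 (0.46), Isg15 (0.79), Saa1 (0.21) and Saa3 (1.38). Those then negative were Mki67 (-0.0246), Mrc1 (-0.60), Rpl13 (-0.29), Rpl3 (-0.22), Rpl32 (-0.30), Rps19 (-0.167), S100a10 (-0.31), Xist (-0.00454), mt-Co2 (-0.191), mt-Cytb (-0.29) and mt-Nd4l (-0.34). Leaving out single libraries changed the sign of 6 named genes, whose ranges were -0.53 to 0.026 for Acta2, -0.59 to 0.13 for Cd34, -1.5 to 0.24 for Cx3cr1 and -0.31 to 0.13 for Kdm5d, each positive without WD control replicate 2. Xist ran between -2.501e-05, without WD + LPS replicate 3, and 0.00325, and mt-Cytb between -0.00188, without WD control replicate 3, and 1.12. In the pair of WD + LPS replicate 3 and WD control replicate 2, the sign was the opposite in 61 of the 151 named genes, among them Ccl5 (8.88), Saa3 (7.19), Isg15 (6.16) and Mki67 (-2.35). The cause of these shifts was not tested. In the simulation most 2-fold changes were missed, and these data hold a spread shared across genes that it lacks. The depth behind single values is known only roughly.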
